A study of Mus musculus with 12 samples.

Results

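Microglia are the resident macrophages of the brain. They descend from yolk sac progenitors and not from the neuroectoderm that gives rise to neurons, astrocytes and oligodendrocytes, and they survey the tissue through fractalkine, purine and colony stimulating factor receptors, clear debris through TREM2 and its adaptor DAP12, and hold their identity through the transcription factors PU.1, IRF8 and SALL1. The 30 genes described here are markers of these cells, among them Cx3cr1 and P2ry12. They were taken by symbol from a table of 34193 genes: 29 were found under their own symbol, and Spi1, which encodes PU.1, stood under its older symbol Sfpi1. All 30 passed the filter on low values, a mean of 10 normalised reads or more across the 12 libraries, which left 14397 genes for testing. The rule that gives the list uses symbols and no measured value, although the members were chosen with earlier results of these data known.

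The samples were cerebral cortex of mice at 8 weeks. In the conditional knockout (cKO), 6 libraries came from mice with loxP-flanked alleles of Nsd1, which encodes a histone H3 lysine methyltransferase, and a Nestin-Cre transgene. The 6 control libraries came from mice with the same loxP-flanked alleles and no Cre. Nestin-Cre acts in neural progenitors, so neurons and macroglia are the intended site of recombination, and the labels do not say which cells of the cortex lost Nsd1. Total RNA depleted of ribosomal RNA was sequenced, and values are read counts normalised between libraries by the authors (normalised reads). The libraries are called biological replicates without animals being named, so p-values rest on differences among these libraries, which may in part be technical. Libraries are numbered as in the columns of the table. Columns 1 to 3 of each genotype held reads of Y-linked genes and columns 4 to 6 held almost none, which differs from the labelled sex of the same number in 8 of 12 columns. Columns were therefore assigned to genotype only, and the test of genotype had a term for the set with or without Y-linked reads.

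Between 14.6 and 27.0 M reads were assigned to genes in the cKO libraries, and between 10.5 and 21.1 M in the control libraries. A count of 3 reads corresponded to 1.98 to 3.56 normalised reads in the cKO libraries and to 2.47 to 5.64 in the control libraries. Control libraries 4 and 5, the shallowest of all, had the largest shares of mitochondrial ribosomal RNA (14.2% and 11.5% of their reads). cKO library 4 stood apart for base composition: across the tested genes, the deviation of this library from the mean correlated with transcript GC content at Pearson r = -0.41, a description over genes that share the library. Nsd1 averaged 3251 ± 299 normalised reads in cKO cortex and 4235 ± 850 in control cortex (SD, n = 6 each). Its fold change (log2 -0.36 ± 0.12, SE) missed the threshold (limma adjusted p = 0.383), so the summed Nsd1 reads give only a weak check of the genotype labels.

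The markers were present in every library, and the defining pair was among the better expressed. Per kilobase of transcript, Ctss, which encodes the lysosomal protease cathepsin S, was highest at 672 ± 69.7 normalised reads in cKO cortex and 700 ± 109 in control cortex. By the mean over all 12 libraries, Csf1r, the receptor for the survival factors CSF1 and IL-34, followed at 371 ± 35.4 in cKO and 353 ± 22.4 in control. Tyrobp was next with 290 ± 66.6 in cKO and 394 ± 137 in control, above Csf1r in the control mean but within its SD. Then came Fcrls, Tmem119, Selplg, P2ry12, Laptm5 and Cx3cr1, whose mean level per kilobase in cKO cortex went down from 248 to 187, each within the SD of its neighbour. P2ry12 had 208 ± 30.6 per kilobase in cKO and 203 ± 36.9 in control, and Cx3cr1 had 187 ± 17.8 in cKO and 181 ± 18.9 in control. At the low end, Cd33 had 11.1 ± 2.46 in cKO and 12.4 ± 1.22 in control, Ptprc had 10.8 ± 2.06 in cKO and 11.4 ± 2.04 in control, and Tlr2 had 6.83 ± 2.30 in cKO and 7.03 ± 3.16 in control. The lowest read count of any member in a library was 5, in control library 4. Markers of blood leukocytes were near 0: of 16 such genes 14 had a mean under 3 normalised reads, Mmp8 had no reads in any library, and the summed level of the list was 18.9 to 44.4 in cKO and 23.8 to 43.9 in control libraries. Only Mmp9 of that list could be tested (log2 fold change -0.06, limma adjusted p = 0.949).

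The start regions of 4 members are shown because PU.1, a member itself, is the main transcription factor of the lineage. Ctss and Cd53 were chosen as the only members, of 23 searched, whose window held the motif. The others are the defining markers P2ry12 and Cx3cr1. Each sequence is taken from RefSeq on build GRCm38.p6, reads 5′ to 3′ on the strand of the gene, and covers 120 bases before and 30 bases after the annotated start. Ctss lies at chr3:95526666-95526815 on the plus strand, Cd53 at chr3:106790120-106790269 on the minus strand, P2ry12 at chr3:59262956-59263105 on the minus strand and Cx3cr1 at chr9:120068267-120068416 on the minus strand. Capitals mark a match to a PU.1 motif, searched as GAGGAAGT on both strands and thus also as ACTTCCTC.
Ctss: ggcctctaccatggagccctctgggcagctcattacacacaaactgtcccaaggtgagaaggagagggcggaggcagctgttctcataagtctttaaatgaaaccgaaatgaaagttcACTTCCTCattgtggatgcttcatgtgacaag
Cd53: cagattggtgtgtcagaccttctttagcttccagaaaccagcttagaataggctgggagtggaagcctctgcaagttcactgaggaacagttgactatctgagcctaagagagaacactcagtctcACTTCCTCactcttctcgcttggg
P2ry12: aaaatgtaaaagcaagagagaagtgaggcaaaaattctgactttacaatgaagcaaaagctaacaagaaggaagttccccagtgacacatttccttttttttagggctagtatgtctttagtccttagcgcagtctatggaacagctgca
Cx3cr1: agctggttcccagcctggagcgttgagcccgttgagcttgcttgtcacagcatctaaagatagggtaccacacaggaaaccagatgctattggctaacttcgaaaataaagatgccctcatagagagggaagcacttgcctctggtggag
In Ctss the match runs from position -2 to 6, and in Cd53 from 7 to 14, counted from the start with no position 0. Both are on the strand opposite to the gene. The P2ry12 and Cx3cr1 windows do not hold these letters. Of the 30 members 23 were searched, and 2 of those (8.70%) held the motif within 250 bases before and 50 after the start. Over all genes 3.2% of 32851 windows of the same length held it. The first is a share of genes and the second a share of windows, so they are not directly comparable. The members not searched had no entry in the promoter table or were left out of the search. A match is a description of sequence and not a measured binding site.

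Across the list, no marker passed the test between cKO and control cortex. With limma on log2(normalised reads + 1), 0 of 30 members were called at an adjusted p under 0.05, where 0.834% of all tested genes were (120 genes, with 0.764% higher and 0.0695% lower in cKO). The count was also 0 with edgeR (0.827% of all genes) and with DESeq2 (1.17%) on the recovered reads, and the authors' deposited table calls none, with a lowest adjusted p of 0.545 among the members. Of the members, 11 had a log2 fold change above 0 and 19 below, against 49.9% of all genes above 0, and the median was -0.05 against -0.00069 over all genes. Values ran from -0.39 for Tyrobp to 0.20 for Fcrls. At an unadjusted p under 0.05 there was 1 of 30 members, Fcrls, with limma, edgeR and DESeq2 alike, where limma had 9.73% of all genes, edgeR 9.89% and DESeq2 9.97%. The limma count was 1 of 30 without cKO library 4 (Fcrls, 7.78% of all genes), 0 without control libraries 4 and 5 (4.1%) and 1 without all 3 of them (Siglech, 5.14%). It was 5 without control library 2 (Trem2, Tyrobp, Cd68, Aif1 and Spi1, each below 0, 16.8% of all genes) and 2 without cKO library 3 (Tyrobp and Spi1, 14.2%). It was 0 without cKO library 1 (9.1%), cKO library 6 (8.51%), control library 1 (12.7%), control library 5 (5.48%) or control library 6 (10.3%). In 0 of 30 members did the cKO and control libraries separate without overlap, against 1.01% of all genes. The 95% intervals bound what could have been missed in a genotype effect shared by both sets of libraries, and not the effect within a set. For 23 of 30 members the interval lay within a 1.5-fold change either way, against 81.0% of all genes. For 30 of 30 it lay within a 2-fold change, against 96.0% of all genes. The 7 members whose intervals passed a 1.5-fold change were Trem2, Tyrobp, Fcer1g, Tlr2, Ly86, Aif1 and Spi1. Each passed it on the side of lower values in cKO, and Tlr2 did so on both sides. Summed over the list, the members had 7826 to 9799 normalised reads in the cKO libraries (9076 ± 679) and 8017 to 9934 in the control libraries (9097 ± 772, n = 6 each). In RNA from whole cortex, fewer microglia and less RNA per cell cannot be told apart.

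**Figure D1:**
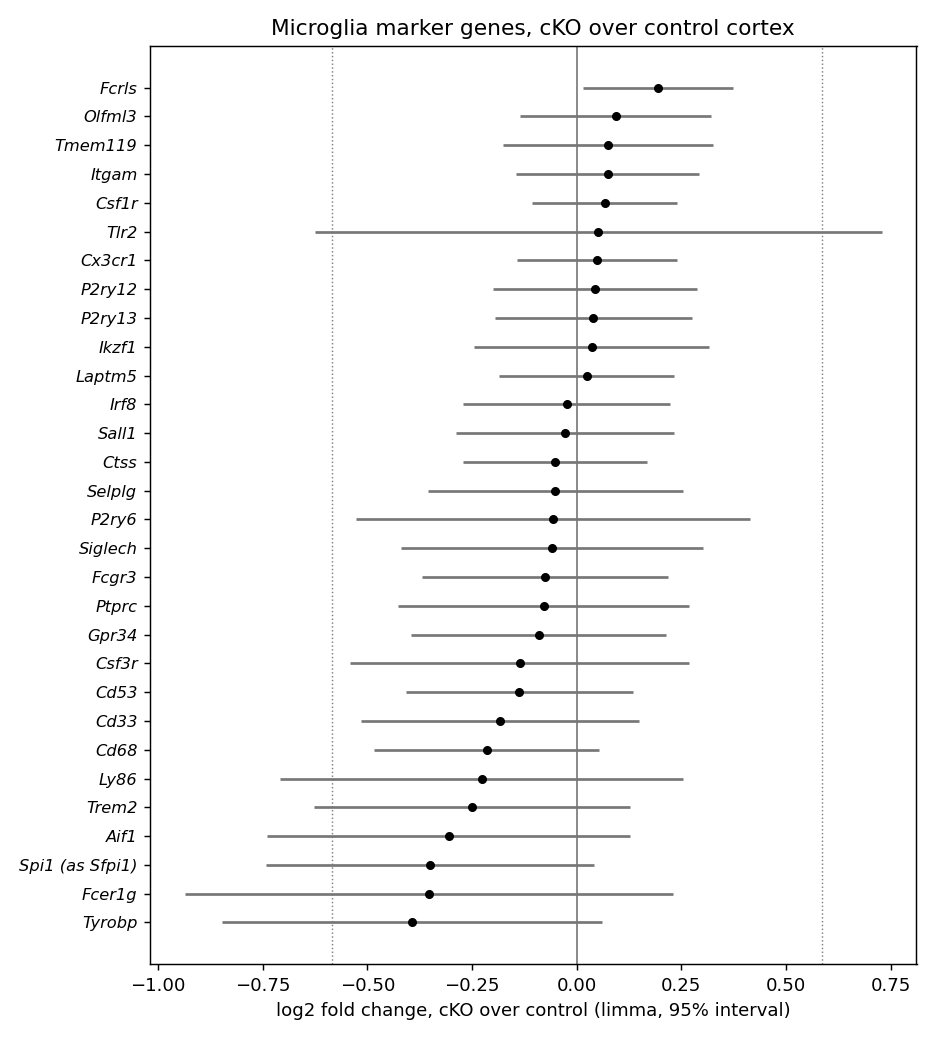
Log2 fold change, cKO over control, of the 30 microglia marker genes (points) with 95% intervals (bars) from limma; dotted lines mark a 1.5-fold change either way. Fcrls is highest at 0.20 and Tyrobp lowest at -0.39, and the intervals of all but Fcrls include 0.

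Among the purine and lysophospholipid receptors, 0 of 4 were called and the median log2 fold change was -0.01. P2ry12, the ADP receptor that steers microglial processes toward injury, had a lowest, median and highest value of 378, 501 and 572 normalised reads in cKO libraries and 357, 477 and 576 in control libraries. The ranges nearly coincide. The fitted ratio of cKO to control was 1.03 (95% interval 0.871 to 1.22, limma adjusted p = 0.893). P2ry13, a related ADP receptor, averaged 159 ± 24.9 in cKO and 154 ± 16.1 in control. P2ry6, the UDP receptor that triggers phagocytosis, averaged 32.8 ± 10.4 in cKO and 32.4 ± 2.42 in control, and cKO library 4 had the lowest value, 14.2. Gpr34, a receptor for lysophosphatidylserine, ran through 144, 188 and 213 in cKO libraries and 118, 209 and 287 in control libraries. The control libraries spanned more than the cKO libraries on both sides, and the log2 fold change was -0.09 ± 0.14 (SE, limma adjusted p = 0.812). P2ry12 and P2ry13 lie inside the gene Med12l and Gpr34 inside Cask, all on the opposite strand. Med12l averaged 1331 ± 139 in cKO and 1316 ± 190 in control, and Cask 2440 ± 197 in cKO and 2372 ± 269 in control. The sources used here do not give the strand setting of the counting step, so reads of these hosts could be part of the values, although the annotated exons of P2ry12 share only 9 bases with Med12l and those of P2ry13 and Gpr34 share 0 with their hosts.

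None of the 3 receptors for fractalkine and colony stimulating factors was called. Cx3cr1, the fractalkine receptor by which microglia sense neuronal CX3CL1, had a lowest, median and highest value of 724, 844 and 942 in cKO libraries and 717, 815 and 915 in control libraries. The groups overlapped over nearly their whole range. Its ratio of cKO to control was 1.03 (95% interval 0.906 to 1.18, limma adjusted p = 0.842), one of the tighter bounds of the list. Csf1r ran through 1416, 1802 and 1883 in cKO libraries and 1522, 1667 and 1789 in control libraries. Its lowest value, 1416, came from cKO library 4, while the other 5 cKO libraries were between 1749 and 1883. The log2 fold change of Csf1r was 0.07 ± 0.08 (SE, limma adjusted p = 0.752), and it was 0.13 without cKO library 4 (adjusted p = 0.634). Exons of Csf1r share 873 bases with Hmgxb3, a gene of the table on the opposite strand, so reads there may be counted for either. Csf3r, the receptor of granulocyte colony stimulating factor, averaged 44.4 ± 12.3 in cKO and 49.1 ± 14.4 in control. Of 11 genes for ligands of microglial receptors, 10 could be tested and 0 were called. The 2 with the smallest p were Csf1 (352 ± 23.0 in cKO, 314 ± 21.2 in control, limma adjusted p = 0.520) and Cd47, whose product restrains phagocytosis (4319 ± 394 in cKO, 3727 ± 837 in control, adjusted p = 0.527). Csf3 had no reads in any library.

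Among 6 adhesion and surface molecules 0 were called, and the only member with an unadjusted p under 0.05 was here. Fcrls, an Fc receptor-like protein that marks mouse microglia, had a lowest, median and highest value of 510, 566 and 616 in cKO libraries and 434, 486 and 572 in control libraries. The cKO libraries were on the higher side, and the lower of them overlapped with the control libraries. The log2 fold change was 0.20 ± 0.08 (SE), with an unadjusted limma p of 0.0343 and an adjusted p of 0.482. The same comparison had an unadjusted p of 0.0401 with edgeR and 0.0363 with DESeq2, and the adjusted limma p ranged from 0.312 to 0.868 when 1 library was left out. Tmem119, a membrane protein restricted to microglia in the brain, averaged 519 ± 60.4 in cKO and 496 ± 85.1 in control. Itgam, the CD11b chain of complement receptor 3, averaged 403 ± 57.4 in cKO and 381 ± 34.6 in control. Selplg, the P-selectin ligand, averaged 407 ± 90.9 in cKO and 411 ± 25.5 in control, and its cKO library 4 had 230 where the other 5 cKO libraries had 408 to 491. Ptprc, the pan-leukocyte phosphatase CD45, ran through 43.2, 52.6 and 72.4 in cKO libraries and 38.7, 60.4 and 67.6 in control libraries. The 2 ranges overlap, and the log2 fold change was -0.08 ± 0.16 (SE, limma adjusted p = 0.863). The tetraspanin gene Cd53 averaged 117 ± 20.1 in cKO and 130 ± 27.1 in control.

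The innate immune receptors and adaptors were the group with the lowest median, -0.21, although 0 of 8 were called. Trem2, the lipid-sensing receptor of phagocytic microglia, had 171, 152, 179, 101, 147 and 177 normalised reads in cKO libraries 1 to 6 and 139, 119, 200, 244, 214 and 200 in control libraries 1 to 6. Only cKO library 4 was below all control libraries, and control libraries 3 to 6 were above all cKO libraries. Tyrobp encodes DAP12, the signalling adaptor of TREM2, and had 169, 143, 218, 106, 166 and 180 in cKO libraries and 159, 124, 243, 321, 294 and 192 in control libraries. Fcer1g encodes the common gamma chain of Fc receptors and had 94.6, 68.6, 84.4, 30.8, 92.1 and 96.7 in cKO libraries and 75.7, 50.2, 98.1, 137, 117 and 111 in control libraries. In these 3 genes cKO library 4 was lowest and control library 4 highest of all 12. The log2 fold changes were -0.25 ± 0.18 for Trem2 (limma adjusted p = 0.600), -0.39 ± 0.21 for Tyrobp (adjusted p = 0.527) and -0.35 ± 0.27 for Fcer1g (adjusted p = 0.623; SE throughout). Without cKO library 4 and control libraries 4 and 5, the log2 fold change was 0.02 for Trem2, -0.01 for Tyrobp and 0.05 for Fcer1g. This joint removal was added after the values were seen. It takes out the lowest cKO library and the highest control libraries of these genes, which by itself moves the fold change up. The source of the differences was not tested. Fcgr3, the low-affinity IgG receptor, averaged 169 ± 18.3 in cKO and 184 ± 56.0 in control. Siglech averaged 180 ± 39.6 in cKO and 187 ± 38.6 in control, and Cd33 averaged 63.7 ± 14.1 in cKO and 71.1 ± 7.0 in control, both sialic acid-binding lectins. Siglech, Cd33, Fcgr3 and Fcrls belong to families of similar genes, and reads shared with relatives may have been divided between them. Ly86, the MD-1 partner of a Toll-like receptor homologue, averaged 101 ± 26.5 in cKO and 124 ± 47.1 in control. Tlr2, which senses bacterial lipopeptides, ran through 15.4, 17.0 and 31.9 in cKO libraries and 9.05, 25.0 and 30.8 in control libraries. Its interval for the ratio, 0.648 to 1.66, was the widest of the list.

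**Figure D2:**
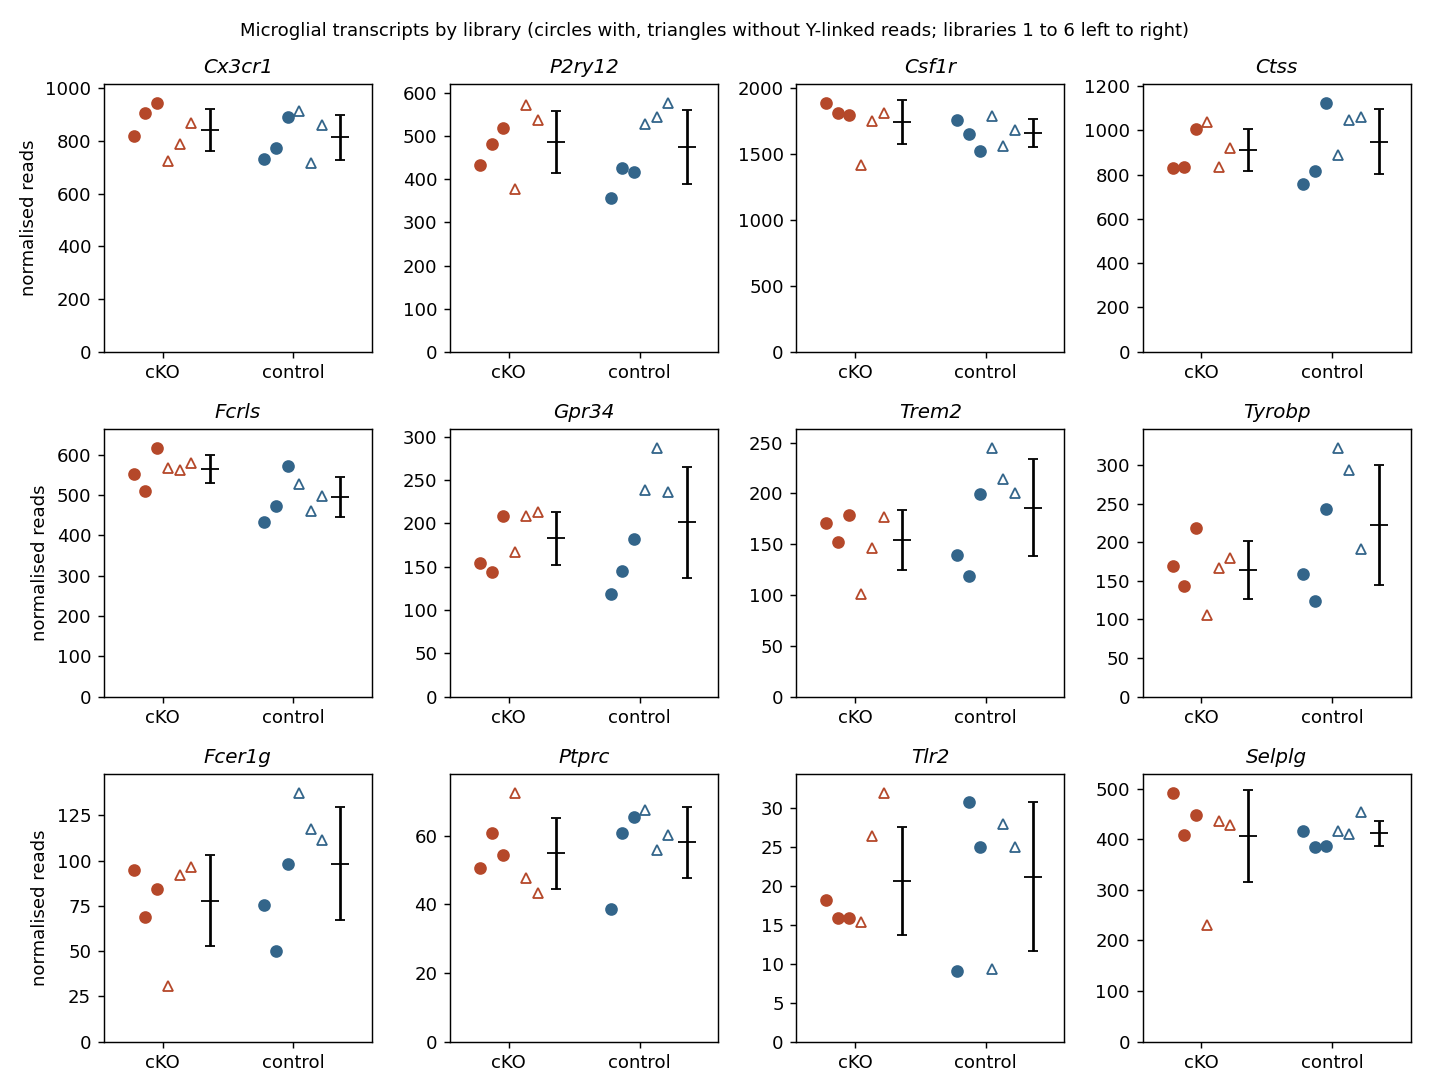
Normalised reads of 12 members in each library, cKO left (red) and control right (blue); circles are libraries with and triangles libraries without Y-linked reads, numbered 1 to 6 from left to right, and bars give mean and SD (n = 6). The groups overlap in every panel, and cKO library 4, the first cKO triangle, is lowest for Trem2 (101), Tyrobp (106), Fcer1g (30.8) and Selplg (230).

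Of the lysosomal and cytoplasmic proteins, 0 of 4 were called, with a median of -0.13. Ctss ran through 830, 876 and 1039 in cKO libraries and 758, 969 and 1121 in control libraries. The cKO values were inside the control range, with a ratio of 0.965 (95% interval 0.829 to 1.12, limma adjusted p = 0.859). Cd68, a lysosomal glycoprotein of phagocytes, averaged 80.7 ± 10.5 in cKO and 94.5 ± 16.7 in control. Laptm5, a lysosomal transmembrane protein of blood cells, averaged 534 ± 72.0 in cKO and 521 ± 27.0 in control. Aif1, the source of the Iba1 antigen, averaged 76.5 ± 16.8 in cKO and 98.2 ± 33.4 in control. The secreted glycoprotein Olfml3 averaged 353 ± 36.4 in cKO and 333 ± 50.1 in control.

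Of the transcription factors, 0 of 4 were called. Spi1 had the largest difference, 48.6 ± 10.7 in cKO and 62.4 ± 15.0 in control, or -0.35 ± 0.18 as log2 fold change (SE, limma adjusted p = 0.527). Irf8, a partner of PU.1, averaged 95.7 ± 7.94 in cKO and 97.8 ± 13.7 in control. Ikzf1, which encodes Ikaros, averaged 99.97 ± 7.6 in cKO and 98.9 ± 20.9 in control. Sall1, the factor that keeps microglia from other macrophage fates, averaged 389 ± 67.7 in cKO and 393 ± 46.6 in control.

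The labels give both sexes in each genotype, and the effect of cKO was also fitted within each set of libraries. In the libraries with Y-linked reads the median of the members' log2 fold changes was 0.12, with 24 of 30 above 0. In the libraries without, the median was -0.21, with 5 of 30 above 0. The difference between the sets was above 0 for 25 of 30 members, against 51.6% of all genes, and 0 of 30 differences were called by limma, as were 0 genes in the whole table by limma and edgeR and 3 by DESeq2 (0.0208%). At an unadjusted p under 0.05 there were 4 of 30 members by limma (8.77% of all genes), and 3 each by edgeR (8.61%) and DESeq2 (8.91%). The 4 were Trem2, Tyrobp, Fcer1g and Gpr34, each with a limma adjusted p of 0.562. For Trem2 the log2 fold change was 0.16 in the set with Y-linked reads and -0.66 in the set without, a difference of 0.82 ± 0.30 (SE). The differences were 0.88 ± 0.38 for Tyrobp, 1.07 ± 0.49 for Fcer1g and 0.56 ± 0.26 for Gpr34. In the set with Y-linked reads, Gpr34 averaged 169 ± 34.4 in cKO and 148 ± 31.6 in control (SD, n = 3 each), and in the set without them 196 ± 25.3 in cKO and 254 ± 28.3 in control.

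**Figure D3:**
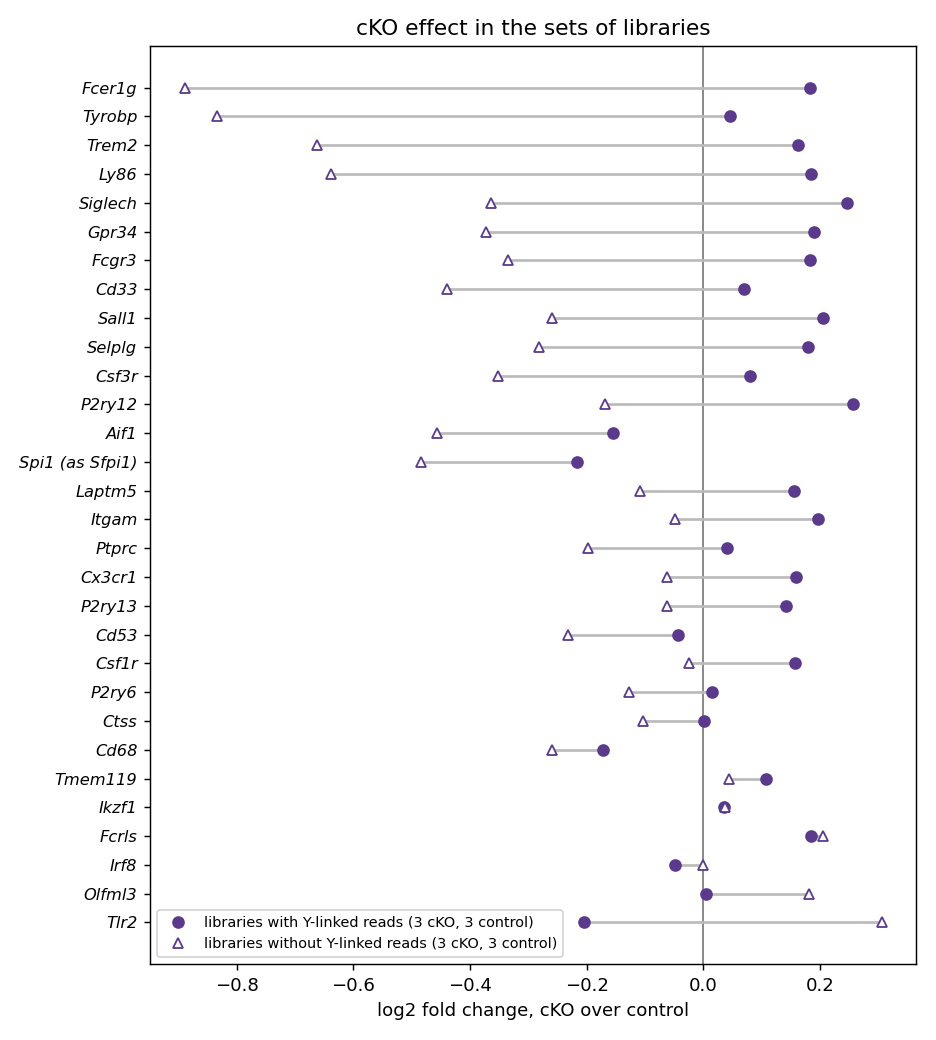
Log2 fold change, cKO over control, of each member within the libraries with (filled circles) and without (open triangles) Y-linked reads, sorted by their difference; 3 cKO and 3 control libraries per set. Circles are to the right of triangles in 25 of 30 members, by up to 1.07 for Fcer1g, and no difference was called. The members share the same libraries and are not independent.

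cKO library 4, control library 4 and control library 5, the libraries that stand apart, are all in the set without Y-linked reads. Transcript length was also compared, across the 30 members, with the deviation of each library from the mean. Pearson r with log2 length was -0.06, 0.61, 0.21, 0.33, 0.11 and -0.01 in cKO libraries 1 to 6. In control libraries 1 to 6 it was 0.01, 0.58, -0.33, -0.41, -0.63 and -0.41. Larger values thus occurred in both sets, among them cKO library 2 and control library 2 with Y-linked reads. These values are a description over genes that share the library. The members with the largest differences had short transcripts, with 683 bases for Fcer1g, 564 for Tyrobp and 1088 for Trem2. Among the other members no longer than Ctss, differences were 0.82, 0.30, 0.09, 0.52 and 0.10 for Ly86, Aif1, Cd68, Fcgr3 and Ctss. Their transcripts had 1134, 875, 1230, 1347 and 1355 bases. Among the longest, differences were 0.51, -0.18, 0.47, -0.001 and 0.24 for Cd33, Olfml3, Sall1, Ikzf1 and Ptprc. Those had 5728, 5465, 5265, 5163 and 5074 bases. A relation of length to the differences was not tested. With a linear length trend removed from each library, the median was 0.13 with and -0.13 without Y-linked reads, and the median difference was 0.26. cKO library 4 was the lowest of the 12 libraries for 14 of 30 members and the highest for 2, against 21.2% and 20% of all genes. Within the cKO group it was lowest of 6 for 19 of 30 members (63.3%, against 32.1% of all genes), and it reached 35.3% of the mean of the other 5 cKO libraries for Fcer1g, 38.9% for P2ry6 and 52.0% for Selplg. It was highest of 6 for 4 members, with 156% of that mean for Aif1, 141% for Ptprc, 125% for Olfml3 and 117% for Ctss. Without cKO library 4 the median over all libraries was 0.01, the median in the set without Y-linked reads was -0.07 with 13 of 30 above 0, and 1 of 30 differences, that of Trem2 (0.60), had an unadjusted limma p under 0.05 (7.22% of all genes). Without control libraries 4 and 5 it was 0 of 30 (1.56% of all genes), and without all 3 libraries also 0 of 30 (1.58%), in fits with fewer libraries in which the share of all genes was lower too. Without cKO library 4 the differences themselves remained mostly above 0. Their median was 0.25 over all libraries and 0.16 without cKO library 4 (24 of 30 above 0). It was 0.27 without control libraries 4 and 5 (24 of 30) and 0.18 without all 3 (24 of 30). In these last fits control library 6 was the only control library left in the set without Y-linked reads. They therefore cannot show whether the differences persist. Leaving out other single libraries moved the count at an unadjusted limma p under 0.05 both ways. It was 10 of 30 without cKO library 6 (11.5% of all genes), 8 without cKO library 5 (8.77%), and 6 without control library 3 (18.4%) or control library 6 (16%). Omitting control library 4 left 2 (4.33%), and 1 was left on omitting cKO library 3 (4.18%), control library 1 (4.65%), control library 2 (5.36%) or control library 5 (4.48%). The summed level of the members was 7826 in cKO library 4 and 9326 ± 329 in the other 5 cKO libraries (SD). Medians of other marker lists also differed between the sets. The 18 further homeostatic microglial genes had 0.07 with and -0.15 without Y-linked reads, with 15 of 18 differences above 0. Border-associated macrophage markers had -0.13 and 0.03, with 2 of 7 differences above 0. Astrocyte markers had 0.23 and -0.05, oligodendrocyte markers 0.05 and -0.12, and neuron markers -0.04 and 0.27. Endothelial markers had -0.01 and -0.08 and erythrocyte markers -0.23 and -1.08. The part of these other cells in the microglial values was not tested.

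**Figure D4:**
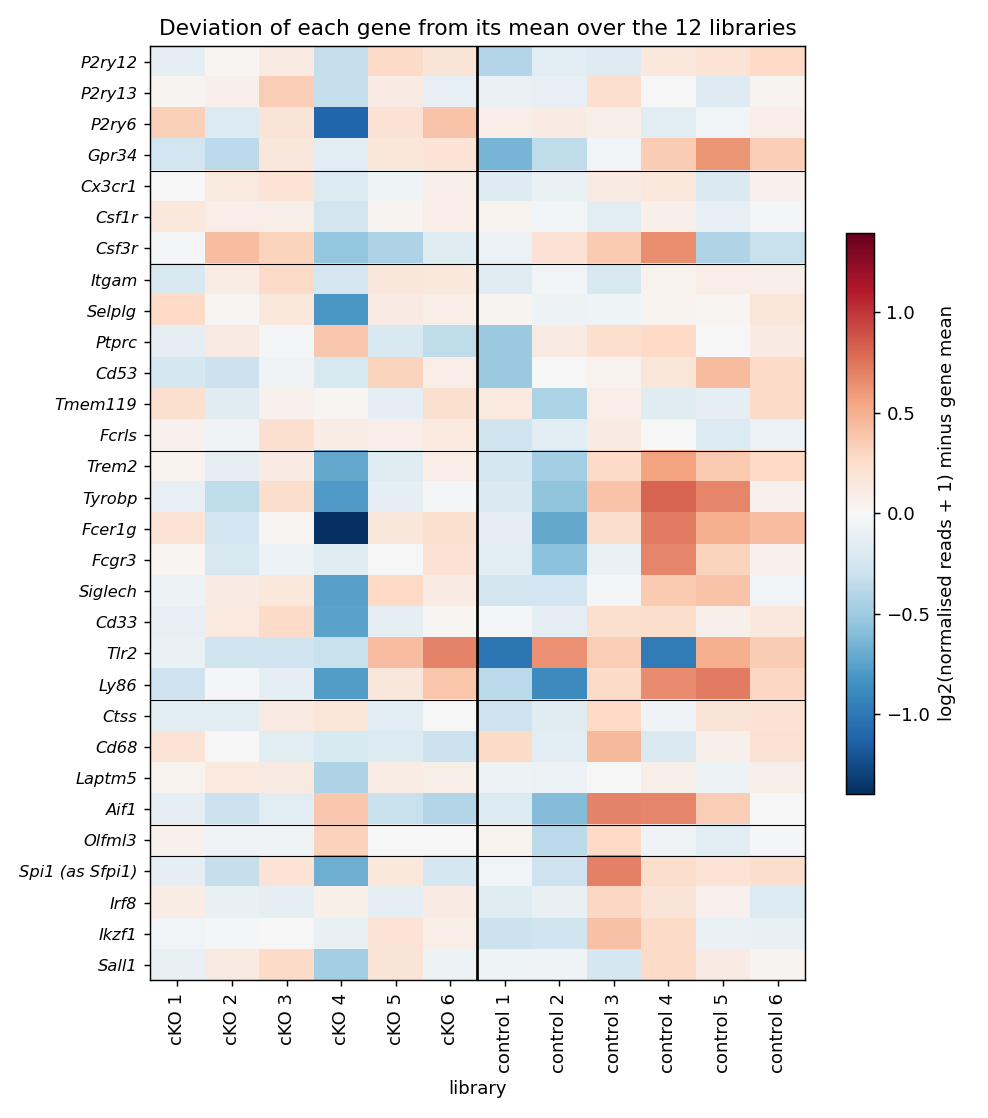
Deviation of each member from its mean over the 12 libraries, as log2(normalised reads + 1), by library (columns, cKO left and control right of the black line) and role (rows, separated by thin lines). cKO library 4 is darkest blue for Fcer1g (-1.39) and P2ry6 (-1.10), and Trem2, Tyrobp and Fcer1g are red in control libraries 4 and 5.

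Other genes of microglial states gave 1 call. Of 18 further homeostatic microglial genes, 0 were called (median -0.02), and the 2 with the smallest p were Entpd1, the CD39 ectonucleotidase (302 ± 36.3 in cKO, 260 ± 10.4 in control, limma adjusted p = 0.481), and Adgre1, listed as Emr1, which encodes F4/80 (128 ± 12.9 in cKO, 113 ± 25.0 in control, adjusted p = 0.577). Of 17 genes linked to disease-associated microglia 12 could be tested, and 1 was called, where 0.834% of all tested genes were. Gpnmb, a transmembrane glycoprotein that is also made by cells other than microglia, had a lowest, median and highest value of 63.8, 67.4 and 71.2 in cKO libraries and 19.6, 31.9 and 37.0 in control libraries. Every cKO library was above every control library, and the groups separated without overlap for 1.01% of all genes. Gpnmb was higher in cKO, with a log2 ratio of 1.16 ± 0.14 (SE; limma, adjusted p = 0.000317) over all libraries, 0.93 ± 0.19 in the set with Y-linked reads and 1.40 ± 0.19 in the set without. Leaving out 1 library gave 1.07 to 1.21. The list as a whole did not follow: its median was -0.02, with 6 of 12 above 0. Cst7, Itgax, Clec7a, Lgals3 and Cd52 were below the filter. At an unadjusted limma p under 0.05 there were 4 of 12 genes (9.73% of all genes): Gpnmb, Ctsz, Axl and Apoe. Ctsz, a lysosomal cathepsin, averaged 647 ± 55.5 in cKO and 508 ± 73.0 in control. Its log2 fold change was 0.35 (limma adjusted p = 0.134, DESeq2 adjusted p = 0.0515, and 0.0598 in the authors' DESeq2 values). Axl had -0.23 and Apoe -0.26, neither called. Of 13 activation and cytokine genes only 3 passed the filter and 0 were called, and the smallest p belonged to Nlrp3 (15.8 ± 7.66 in cKO, 18.5 ± 6.75 in control) and Cd86 (29.0 ± 3.38 in cKO, 31.7 ± 6.24 in control). The summed level of those 13 genes was 84.2 to 123 in cKO and 81.4 to 149 in control libraries.

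Markers of neighbouring cells give the setting. Of 12 markers of border-associated macrophages 7 could be tested and 0 were called (median -0.03), and the smallest p belonged to Cbr2 (13.7 ± 6.95 in cKO, 18.8 ± 4.74 in control) and Pf4 (9.09 ± 3.54 in cKO, 14.4 ± 10.2 in control). Neither the 7 neuron markers (median 0.10), nor the 6 oligodendrocyte (-0.04) and 6 endothelial markers (-0.03), held a called gene. The smallest p belonged to Syt1 (log2 fold change 0.25) and Gad2 (0.19) among neuron markers, Mbp (-0.37) and Mobp (-0.31) among oligodendrocyte markers, and Ly6c1 (-0.20) and Cldn5 (-0.08) among endothelial markers, with limma adjusted p from 0.516 to 0.792. Of the 7 astrocyte markers (median 0.06) the water channel gene Aqp4 was called (0.53, limma adjusted p = 0.00973), where 0.834% of all tested genes were. The 4 erythrocyte markers found had a median of -0.68 and 0 calls, with Hba-a1 at 151 ± 53.7 in cKO and 237 ± 44.7 in control (adjusted p = 0.238) and Hba-a2 at 108 ± 39.5 in cKO and 166 ± 35.3 in control (adjusted p = 0.401).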

How the data were processed

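Values were deposited as a signal: read counts per gene divided by a DESeq2 size factor per library, per the file headers. STAR, Bowtie, bedtools, Trim Galore and build mm9 are named, per the submitters' processing notes, with no versions or roles. The same table deposited by the authors holds their DESeq2 log2 fold changes, Wald score, p-values and adjusted p-values. All values above 0 (100%) were whole multiples of 1 step per library within 0.01 reads, which gave back whole reads.

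Genes with a mean of at least 10 were tested two-sided by limma 3.58.1 (R 4.3.3) with an intensity trend on log2(value + 1), for genotype and set with or without Y-linked reads (a sum over 4 genes above 100), with Benjamini-Hochberg adjustment over 14397 genes and calls at an adjusted p under 0.05. On this scale fold changes of low genes are understated. The difference between sets came from 4 genotype-by-set groups. edgeR 4.0.16 called 119 genes and DESeq2 1.42.0 called 169 on the recovered reads. Replicate pairs differed by more than counting noise (chi-square over degrees of freedom 7.22 to 170 in 30 pairs), so each library counted once.

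Levels per kilobase used the longest protein-coding GENCODE transcript, on GRCm38. Promoters came from RefSeq, GRCm38.p6. Scripts were tested on simulated data. Members, 7 role groups and 11 other marker lists were chosen with earlier results of these data known. Named genes are all members, Nsd1, and of each list the called genes or otherwise the 2 with the smallest p (Axl and Apoe were named after their values were seen). Per-library values are for Cx3cr1, P2ry12, members with an unadjusted p under 0.05 in either contrast and the 2 highest and 2 lowest per kilobase. Alternatives were the pseudocount, filter, scaling, array weights, count models, the Y-linked term, a replicate block, each library left out, control libraries 4 and 5 left out and a length trend removed. A GC trend and the joint removal of cKO library 4 and control libraries 4 and 5 were added after seeing the data. A value of 1 gene of the blood leukocyte list is not reported here.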

Additional observations from a re-analysis of the deposited data

Results flagged for a closer look

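Within a group of 6 libraries, a library stood far from the others (its gap to the nearest library, as a share of the group's range, was above Dixon's critical value) in 6 of 66 gene-by-group sets examined, where chance gives about 1 in 20, or 3.3. The sets share the same libraries, so the flags are not independent, and no such share over all genes was computed. In 5 of the 6 the library was cKO library 4. It was the lowest cKO library for Laptm5 (389 normalised reads, gap 0.821 of the range), Csf1r (1416, gap 0.712) and Selplg (230, gap 0.685), and the highest for Olfml3 (425, gap 0.709) and Aif1 (109, gap 0.704). The astrocyte gene Aqp4 was highest in control library 4 among the control libraries (2678, gap 0.664). No cause was tested.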

How the results depend on the processing

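Under all 27 alternatives 0 members were called between cKO and control (of 30 tested, or 27 with a minimum mean of 50), and the median stayed within -0.09 and 0.07. It ranged from -0.09 (without control library 1) to 0.01 (without cKO library 4) when 1 library was left out, and was above 0 also with array weights (0.05), without control libraries 4 and 5 (0.02) and without these and cKO library 4 (0.07). Differences between the sets were called for 0 members, except with array weights, where 8 of 30 members and 32.4% of all genes were called and the weight estimation stopped before convergence. Leaving out 1 library gave 0 throughout. Nsd1 was called after removal of a length trend (log2 fold change -0.50, limma adjusted p = 0.00349), and ranged from -0.45 to -0.29 without 1 library. The call of Gpnmb held under its 26 alternatives and that of Aqp4 under its 27. Same-numbered libraries correlated at r from 0.091 to 0.50, and 7 of 12 libraries correlated best with their own number. Within sets r ran from -0.098 to 0.48. The main test did not take the numbers as pairs, so any dependence between same-numbered libraries was left out of it. A replicate block gave 118 called genes against 120 and 0 called members. With it 2 members, Fcrls and Spi1, had an unadjusted limma p under 0.05, against 1 without. The share of all genes for that fit was not computed. Weak genes such as Tlr2, with 5 reads in control library 4, limit what could be detected.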
